A study of Mus musculus with 2 samples.

Results

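Insulin receptor, PI3K, Akt and mTOR signalling genes were examined in gastrocnemius (GAS) muscle of *Gde5* skKO and WT mice. The set holds 32 genes chosen by their place in the pathway, with *Frap1* and *Mtor* counted as 1 gene. Probes were assigned by RefSeq accession first, and otherwise by gene name or by an older or current alias. By this order 31 of the 32 genes had at least 1 probe, 72 probes among 41174 in all. *Irs2*, an insulin receptor substrate, was under no probe name and was not analysed here. A gene was tested if a probe of it stood well above background for either genotype on each array, which held for 30 of the 31 genes and for 13598 of all 27597. *Cap1*, the Cbl-associated adaptor listed with the GLUT4 arm, did not pass, since its probe reached that level only for *Gde5* skKO RNA on array 1.

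*Gde5*, also called *Gpcpd1*, encodes an enzyme that hydrolyses glycerophosphocholine. *Gde5* skKO mice carry floxed *Gde5* alleles and an HSA-Cre transgene, in which the human α-skeletal actin promoter drives Cre in skeletal muscle fibres, so the other cells of the muscle keep the gene. The labels call the controls wild-type, while the methods used floxed littermates without Cre as controls for several experiments, and which of these gave the RNA is not stated. All mice were 15-week-old males on a normal diet, and the labels name 5 mice of each genotype and do not say if their RNA was pooled or if the arrays shared the same extracts. The study asked how loss of GDE5 altered glucose metabolism and insulin tolerance, and its text describes arrays of muscle both after glucose injection and in the fasted state. The labels name neither state, so the state of these mice is not known here, although insulin and fasting act on this pathway. Each of the 2 arrays carried RNA of both genotypes, with *Gde5* skKO in Cy5 on array 1 and in Cy3 on array 2. Every value below is a log2 ratio of *Gde5* skKO over WT from 1 array, or the mean of both.

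Insulin binding turns on the tyrosine kinase of its receptor, which phosphorylates IRS proteins. These recruit PI3K, whose lipid product brings PDK1 and Akt to the membrane. In muscle, Akt2 drives GLUT4 to the cell surface for glucose uptake, Akt inhibits GSK3 so that glycogen synthase stays active, and Akt relieves the TSC1-TSC2 block on Rheb so that mTORC1 phosphorylates S6 kinase and raises protein synthesis. Phosphatases, adaptor proteins such as Grb10 and pseudokinases of the Tribbles family hold the signal back. Most of this control works through phosphorylation, which an array of mRNA does not measure.

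No gene of the set met the call rule in either direction, and most could be bounded within a 1.5-fold difference. None of the 30 members was called, where a call needed a Feature Extraction p under 0.05 on each array and the same direction on both. This p comes from the software's error model for the spots of 1 hybridization, and an exact sign-flip test over the 2 arrays could not go below p = 0.5. Among all genes tested, 3.31% were called by this rule, 1.58% higher and 1.73% lower. The mean log2 ratios of the members ran from -0.28 for *Phlpp1* to 0.31 for *Cbl*, with a median of 0.050, against a median of 0.015 over all genes. The SD of the means was 0.149 among the members and 0.276 among all genes. Among the 12325 genes with signal in both channels of both arrays, as 29 of the 30 members had, it was 0.245. For every member a 95% interval was formed from the software's error of the spots, which covers the hybridizations and not the spread between mice. None of the 30 intervals excluded 0, as 14.3% of those over all genes did, and 28 lay wholly within a 1.5-fold difference either way. The exceptions were *Phlpp1*, whose interval reached down to 0.659-fold, and *Cbl*, whose interval reached up to 1.67-fold. By size alone, no member had a mean ratio of at least 1.5-fold with the same direction on both arrays, a rule that 3.68% of all genes met. Limma's moderated test called none of the members after Benjamini-Hochberg adjustment, beside 0.802% of all genes.

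**Figure D1:**
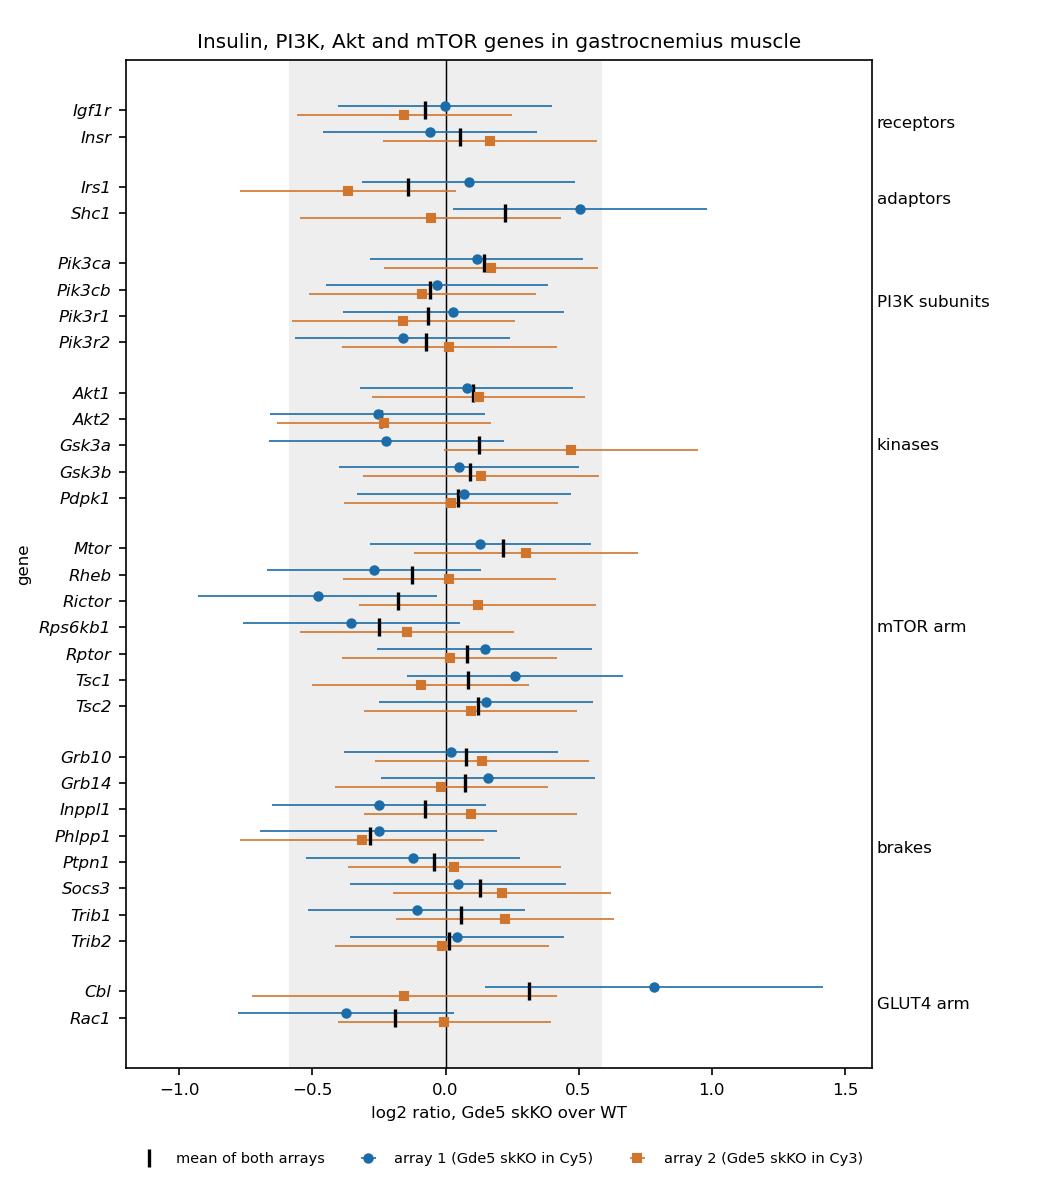
Log2 ratio of *Gde5* skKO over WT for the 30 members with signal, grouped by role, on array 1 (circles) and array 2 (squares), with bars for the 95% interval of the spot error on each array, black ticks for the mean and a grey band for 1.5-fold either way. The means lie between -0.28 and 0.31, all inside the band.

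The direction of the members was mixed. Of the 30, 9 were above 0 on both arrays, 6 were below 0 on both, and 15 had opposite signs on the arrays. Among those 15, 8 were lower and 7 were higher when *Gde5* skKO RNA carried Cy5, so neither dye dominated. On array 1 alone, 3 of the 30 had a p under 0.05, *Cbl*, *Rictor* and *Shc1*, while 12.2% of all genes did. On array 2 alone none did, beside 13.9% of all genes. Over 12325 genes with signal in all 4 channels, the ratios of the arrays had a Pearson correlation of 0.283, a value across genes and not across replicates. Over all 13598 genes tested, those dim in a channel included, it was -0.080.

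**Figure D2:**
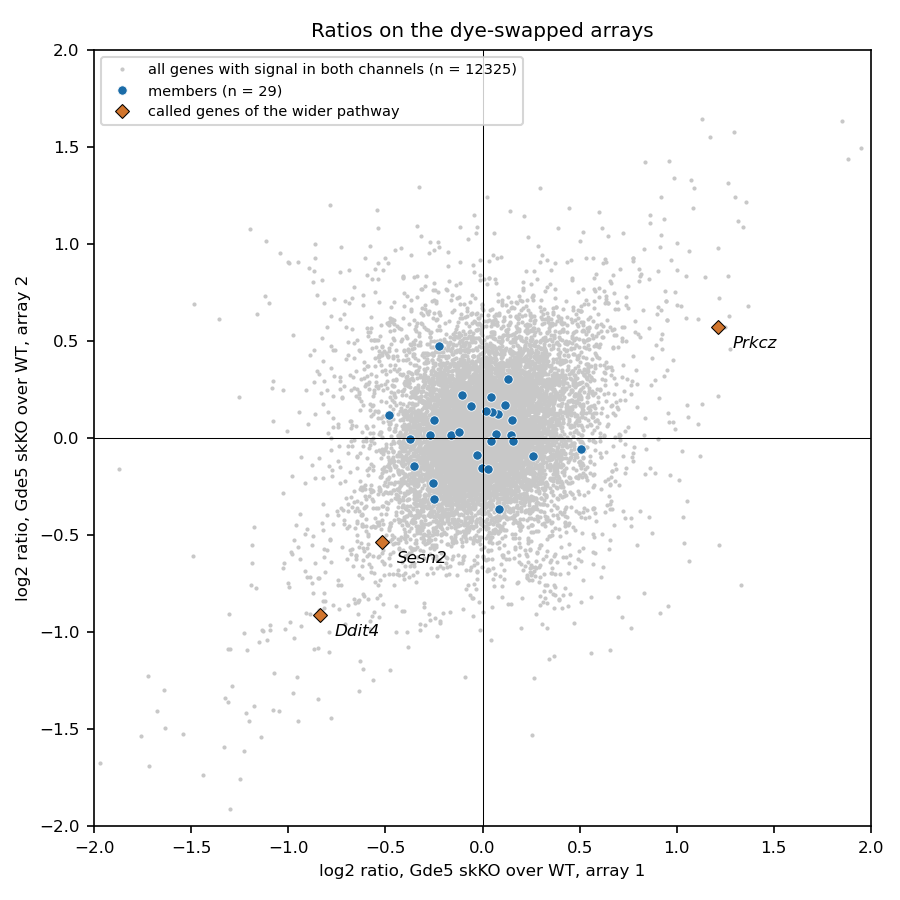
Log2 ratio of *Gde5* skKO over WT on array 1 (horizontal axis) against array 2 (vertical axis) for 12325 genes with signal in both channels of both arrays (grey), 29 members (blue) and the 3 called genes of the wider pathway (orange), with 8 genes outside the axes. The members sit around 0, between -0.48 and 0.50 on array 1, while *Ddit4*, *Sesn2* and *Prkcz* lie in the corners where the arrays share a sign.

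Neither receptor was called. *Insr*, the insulin receptor, was read by a probe at chr8:3151667-3151726 of mm8, minus strand. The array lists it as D630014A15Rik, and it was named *Insr* through a synonym and not through its accession. Its signal was 1394 in WT and 1339 in *Gde5* skKO on array 1, and 1221 and 1371 on array 2. The genotypes overlapped across the arrays, the log2 ratio was -0.058 on array 1 and 0.17 on array 2, and the mean was 0.055 with an interval from -0.23 to 0.34. The probe that the array itself names *Insr* was too dim to pass the filter. *Igf1r*, the receptor for the insulin-like growth factors, had signals of 680 and 679 in WT and *Gde5* skKO on array 1 and 669 and 601 on array 2. Its ratio was -0.0018 and -0.15, with a mean of -0.078 and an interval from -0.36 to 0.21. The other *Igf1r* probe with signal in both channels had a mean of 0.013.

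*Irs1*, the substrate that docks PI3K to the receptor, had signals of 7559 in WT and 8030 in *Gde5* skKO on array 1. On array 2 it had 9094 and 7052. The arrays disagreed, since the knockout was the higher of the pair on array 1 and the lower on array 2. The log2 ratios were 0.087 and -0.37, and the mean of -0.14 had an interval from -0.42 to 0.14. *Shc1*, an adaptor that links the receptor to Ras, had signals of 95.1 and 135 in WT and *Gde5* skKO on array 1 and of 119 and 115 on array 2. Its ratio was 0.50 on array 1, with a p of 0.038, and -0.056 on array 2.

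None of the PI3K subunits was called by any of its probes. *Pik3ca*, the p110α catalytic subunit that carries most insulin signalling, had signals of 2308 in WT and 2503 in *Gde5* skKO on array 1. On array 2 the signals were 2661 and 2993. The knockout was the higher on each array, and the WT value of array 2 exceeded the knockout value of array 1. The log2 ratios were 0.12 and 0.17, with a mean of 0.14 and an interval from -0.14 to 0.43. The second *Pik3ca* probe at chr3:32653257-32653316 had ratios of 0.27 and 0.49 with p-values of 0.221 and 0.0257, and was not called. Its mean was 0.38, or 1.30-fold, with an interval from 0.075 to 0.68 that excluded 0, and the ratio of *Pik3ca* ran from 0.12 to 0.38 over the alternatives. *Pik3r1*, the p85α regulatory subunit, had signals of 267 and 273 in WT and *Gde5* skKO on array 1 and of 300 and 269 on array 2, with a mean ratio of -0.064. Its 4 probes had means from -0.20 to 0.13, on either side of 0. *Pik3r2* and *Pik3cb*, which encode p85β and p110β, had means of -0.073 and -0.059.

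Among PDK1, the Akt isoforms and GSK3, *Akt2* had the lowest ratio. *Akt2*, the isoform tied to glucose uptake in muscle, had signals of 2798 in WT and 2345 in *Gde5* skKO on array 1. On array 2 the signals were 2927 and 2493. Both knockout values lay below both WT values, by log2 ratios of -0.25 and -0.23 with p-values of 0.215 and 0.259. The mean of -0.24 corresponds to 0.845-fold with an interval from 0.693-fold to 1.03-fold, and stayed between -0.25 and -0.15 over all alternatives that gave *Akt2* a ratio. With limma's moderated test over both arrays *Akt2* had an unadjusted p of 0.0349 and a Benjamini-Hochberg adjusted p of 0.512. It was the only member below 0.05 in that unadjusted test, which 8.52% of all genes passed. The second *Akt2* probe, at chr7:27345714-27345854, had ratios of 0.041 and -0.14 and a mean of -0.048.

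*Akt1*, the isoform tied to growth, was measured with most repeats. Its probe at chr12:113101676-113101735 was printed in several places, and 9 spots were used on each array. The spots ran from 0.058 to 0.11 on array 1 and from 0.058 to 0.18 on array 2, so all were slightly above 0. The SD over spots was 0.0180 and 0.0404, while the software's error for the probe was 0.204 and 0.205. Over 129 probes with at least 8 spots, the median SD between spots was 0.0855 on array 1 and 0.0941 on array 2, and the software's median error was 0.210 on both. The software's error, which set every interval here, was thus wider than the spread between repeated spots of a hybridization. The mean ratio of *Akt1* was 0.10 with an interval from -0.18 to 0.39.

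*Pdpk1*, the kinase that activates Akt, had signals of 1639 in WT and 1719 in *Gde5* skKO on array 1 and of 1892 and 1920 on array 2, with a mean ratio of 0.045. *Gsk3a*, which inhibits glycogen synthase, had signals of 193 and 166 on array 1 and of 163 and 226 on array 2. The arrays opposed each other, with ratios of -0.22 and 0.47, and p on array 2 was 0.0519. *Gsk3b*, its paralog, had signals of 142 and 147 on array 1 and of 176 and 193 on array 2. The knockout was slightly higher on each array, with ratios of 0.050 and 0.13 and a mean of 0.091, and the second probe had a mean of 0.0036. The *Gsk3b* probe spans a splice junction, from 38107140 to 38110785 on chromosome 16.

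In the mTOR arm, the brightest probes of *Mtor* and *Rps6kb1* leaned in opposite directions and neither gene was called. *Mtor*, the kinase of both mTOR complexes, is listed under its older name *Frap1* and had signals of 262 in WT and 287 in *Gde5* skKO on array 1, and 262 and 323 on array 2. Both knockout values lay above both WT values, by 0.13 and 0.30 on the log2 scale with p-values of 0.535 and 0.158. The mean of 0.22 had an interval from -0.078 to 0.51, and ran from 0.017 to 0.30 over the alternatives. A second, dimmer *Mtor* probe passed the filter without standing well above background in every channel. It had ratios of 0.37 and -0.74 and a mean of -0.18, so the *Mtor* probes disagreed in direction. The mean over probes gave the 0.017. *Rps6kb1*, the S6 kinase that mTORC1 activates, had signals of 1009 and 789 on array 1 and of 950 and 859 on array 2. Both knockout values lay below both WT values, with ratios of -0.35 and -0.15 and p-values of 0.0884 and 0.48. The second *Rps6kb1* probe with signal in both channels had a mean of -0.20, close to the -0.25 of the brightest, whose interval ran from -0.54 to 0.037.

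*Rptor*, the scaffold of mTORC1, had signals of 810 in WT and 898 in *Gde5* skKO on array 1 and of 871 and 880 on array 2, with a mean ratio of 0.082. *Rictor*, the scaffold of mTORC2, had signals of 277 and 198 on array 1 and of 246 and 267 on array 2. The knockout was lower on array 1, at -0.48 with a p of 0.0364, and slightly higher on array 2, at 0.12 with a p of 0.597. The second *Rictor* probe, with signals of only 39.8 to 48.4, was above 0 on both arrays, at 0.20 and 0.24, so the probes disagreed by 0.40, the widest gap among the 14 members with at least 2 probes that had signal in both channels. The upstream genes of the arm were near 0, *Tsc1* at 0.083, *Tsc2* at 0.12 and *Rheb*, the GTPase they control, at -0.13.

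None of the brakes of the pathway was called. *Phlpp1*, a phosphatase that removes an activating phosphate from Akt, had signals of 193 in WT and 162 in *Gde5* skKO on array 1 and of 198 and 159 on array 2. Both knockout values lay below both WT values, by -0.25 and -0.31 with p-values of 0.268 and 0.178, and the mean was -0.28. After normexp background correction and loess, limma gave it -0.12. The other 7 brakes had means between -0.077 and 0.13. *Inppl1* (SHIP2), which removes a phosphate from the PI3K product, was at -0.077 and *Ptpn1* (PTP1B), which dephosphorylates the receptor, was at -0.045. The receptor-binding inhibitors *Grb10*, *Grb14* and *Socs3* were at 0.079, 0.072 and 0.13, and the pseudokinases *Trib1* and *Trib2* at 0.057 and 0.015.

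In the GLUT4 arm, *Cbl* had the highest mean of the members and the least certain one. *Cbl*, a ubiquitin ligase phosphorylated by the insulin receptor, had signals of 51.8 in WT and 89.1 in *Gde5* skKO on array 1 and of 96.8 and 87.0 on array 2. The WT channel of array 1 was not well above background, and the knockout values lay between the WT values. The log2 ratios were 0.78 with a p of 0.0155 and -0.16 with a p of 0.595, and the mean of 0.31 became 0.096 after normexp and loess. *Rac1*, a GTPase that remodels actin for GLUT4 transport, had ratios of -0.37 and -0.0039 and a mean of -0.19.

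**Figure D3:**
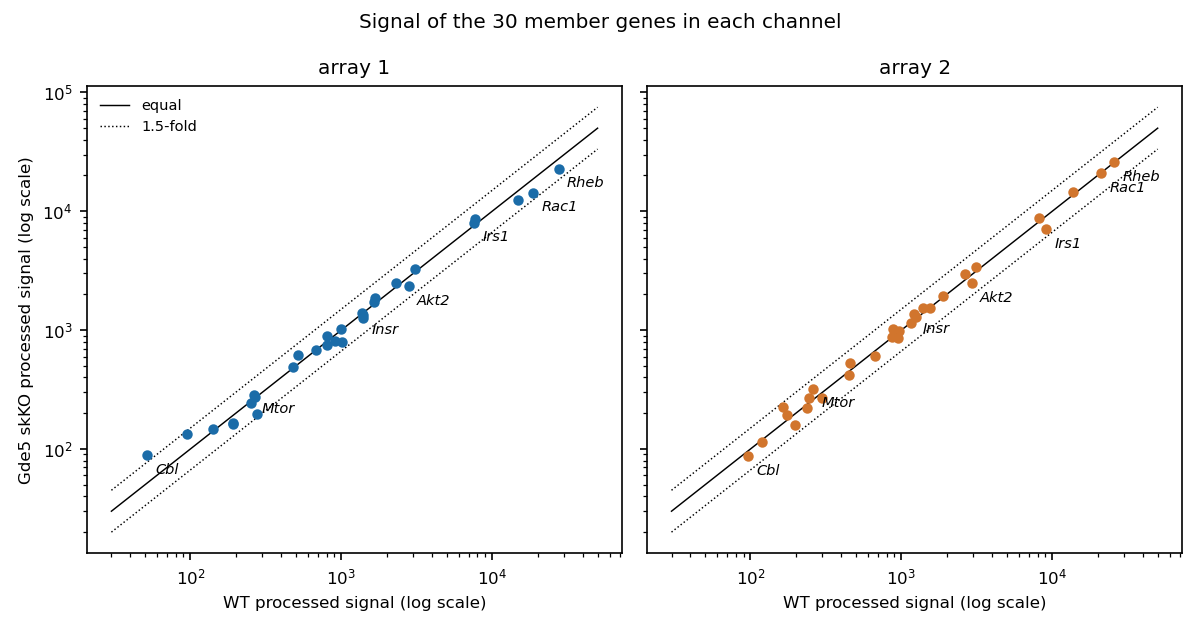
Processed signal of the 30 members in WT (horizontal axis) and *Gde5* skKO (vertical axis), both on log scales, on array 1 (left) and array 2 (right), with a solid line for equal signal and dotted lines for 1.5-fold. On array 1 only *Cbl*, with 51.8 in WT and 89.1 in *Gde5* skKO, lies outside the dotted lines, and on array 2 none does.

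Of the 72 member probes, 47 had signal in both channels of both arrays and none was called. Among 14 members with at least 2 such probes, the range between probe means had a median of 0.16, larger than the median size of the members' mean ratios of 0.0968, and all 14 ranges were under the 0.585 that stands for 1.5-fold. The probes of 7 of the 14 lay on the same side of 0.

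Genes of the wider pathway, 57 in number, were read by the same rule. They include ligands, further phosphatases, mTOR inhibitors and effectors, and were listed by their place in the pathway. Of the 57, 51 passed the filter, 1 was called higher and 2 were called lower, 3 of 51 beside the 3.31% of all genes. Their median was -0.050, with 10 above 0 on both arrays, 20 below 0 on both and 21 of opposite sign. The interval of the mean excluded 0 for 23.5% of them, against 14.3% of all genes. The list was drawn up with earlier results of these data known, so this share only describes it and is no independent support.

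*Ddit4*, which encodes REDD1, an inhibitor of mTORC1 induced by stress, had the lowest ratio of the wider pathway. Its signal was 8552 in WT and 4786 in *Gde5* skKO on array 1, and 8681 and 4613 on array 2. Both knockout values lay far below both WT values. The log2 ratio was -0.84 on array 1 with a p of 0.000122 and -0.91 on array 2 with a p of 3.51e-05. The mean of -0.87 corresponds to 0.545-fold with an interval from 0.442-fold to 0.673-fold. Limma's moderated test gave an adjusted p of 0.0117, and the ratio stayed between -0.91 and -0.83 over all alternatives run. The gene had 1 probe, at chr10:59345095-59345154 of mm8, minus strand.

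*Sesn2*, which encodes sestrin 2, a leucine sensor that also restrains mTORC1, was called lower by its brightest probe. The signal at chr4:131764135-131764194 was 347 in WT and 242 in *Gde5* skKO on array 1, and 318 and 220 on array 2. The log2 ratios were -0.52 with a p of 0.018 and -0.53 with a p of 0.0168, and both knockout values lay below both WT values. A second probe, at chr4:131765019-131765078, had ratios of 0.38 and -0.023 and a mean of 0.18, so the probes of *Sesn2* disagreed. With limma the brightest probe had a mean of -0.29 and an adjusted p of 0.407. Of the other sestrins, *Sesn1* was at 0.031 and *Sesn3* at -0.12.

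*Prkcz*, the atypical protein kinase C zeta that lies downstream of PI3K, was the gene called higher. Its signal was 257 in WT and 597 in *Gde5* skKO on array 1, and 447 and 665 on array 2, so both knockout values exceeded both WT values. The log2 ratios were 1.21 with a p of 4.03e-07 and 0.57 with a p of 0.00546, and a second probe gave 1.47 and 1.02. After normexp and loess in limma the mean fell from 0.89 to 0.36, with an adjusted p of 0.358. The related kinases *Prkci* and *Prkca* were at -0.050 and 0.20 and were not called.

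Several further genes of the wider pathway had an interval that excluded 0 without being called. *Gab1*, a docking protein, had a mean of -0.44, and the growth factor *Igf1* had a mean of -0.37, while its relative *Igf2* had a mean of 0.49. These are values of the brightest probes, and another *Igf2* probe, with a mean of 0.73, met the call rule. *Gys1*, muscle glycogen synthase, had signals of 1298 and 1581 on array 1 and of 1559 and 2159 on array 2, with ratios of 0.28 and 0.47 and p-values of 0.168 and 0.0246. The knockout was the higher on each array, although the WT value of array 2 came close to the knockout value of array 1. *Ptprf*, a receptor phosphatase, had ratios of 0.77 and 0.23, with a Feature Extraction p of 0.000454 on array 1 and 0.272 on array 2. Other effectors had intervals that included 0. *Tbc1d4* (AS160), the Akt substrate that holds GLUT4 inside the cell, had ratios of -0.038 and 0.50, and *Foxo1*, the transcription factor that Akt excludes from the nucleus, had ratios of -0.20 and 0.25.

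**Figure D4:**
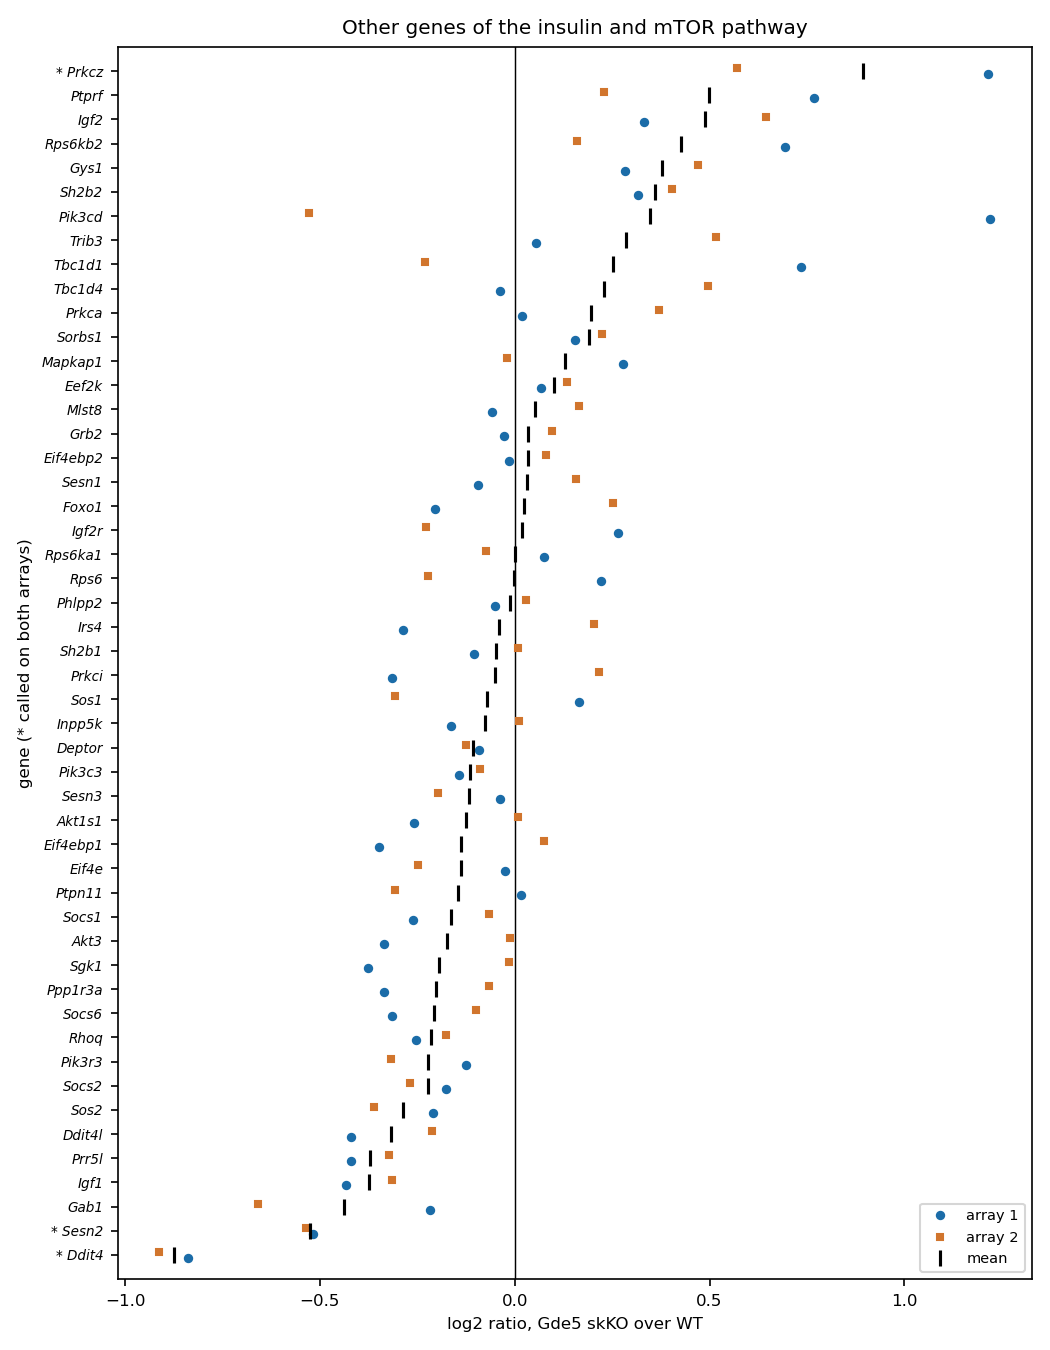
Log2 ratio of *Gde5* skKO over WT for 50 genes of the wider pathway with signal, ordered by their mean (black tick), with array 1 as circles and array 2 as squares, and a star beside each called gene. *Ddit4* at -0.87 and *Sesn2* at -0.53 close the list below, and *Prkcz* at 0.89 stands at the top.

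The 250 bases upstream of the start are shown for *Ddit4* and *Sesn2*, the genes called lower, whose products both restrain mTORC1. They come from the RefSeq promoter table of GRCm38.p6, in the direction of transcription, at chr10:59951771-59952020 (minus strand) for *Ddit4* and chr4:132510457-132510706 (minus strand) for *Sesn2*, with capitals for a CCAAT box on either strand.
Ddit4: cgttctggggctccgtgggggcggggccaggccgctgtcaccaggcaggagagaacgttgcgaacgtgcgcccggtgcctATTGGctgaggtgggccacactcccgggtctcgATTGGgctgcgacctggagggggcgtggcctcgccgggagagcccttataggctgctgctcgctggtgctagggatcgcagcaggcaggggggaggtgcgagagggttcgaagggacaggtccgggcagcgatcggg
Sesn2: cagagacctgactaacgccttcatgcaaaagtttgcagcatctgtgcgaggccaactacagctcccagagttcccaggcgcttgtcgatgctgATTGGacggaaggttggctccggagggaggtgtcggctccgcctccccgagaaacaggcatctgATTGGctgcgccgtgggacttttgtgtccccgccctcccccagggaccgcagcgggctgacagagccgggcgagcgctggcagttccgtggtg
Each holds 2 CCAAT boxes, all on the opposite strand, where they read ATTGG. The letters CCAAT stand on either strand of 33.8% of 32851 promoters of this length, and 2 or more copies stand in 10.1%. The FoxO core GTAAACA, searched on both strands, is in neither and in 3.17% of promoters.

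Checks of the samples bear on these values as follows. *Gde5* is listed under the older name *Prei4*, and 3 of its 4 probes had means from -2.93 to -3.18, while the brightest had -0.26. The brightest had a Feature Extraction p of 0.805 on array 1 and 0.0255 on array 2. The deleted gene itself was thus not called by the rule, which reads the brightest probe, although its other 3 probes met the threshold on both arrays. That rule can miss a difference that other probes of a gene show. All 7 muscle markers had signal, none was called, and their median was 0.012. Of 6 adipocyte markers with signal, 5 were called lower with a median of -0.77 over the 6, and *Lep* did not pass. *Fabp4*, which made up most of the summed signal of that list, was at 0.054, and the summed adipocyte signal was 43777 and 45066 in WT and 43232 and 41144 in *Gde5* skKO. Of 7 slow fibre markers, 2 were called higher, *Tnni1* at 0.67 and *Myl2* at 0.84, and the summed signal ran from 97306 to 100426 in WT and from 135997 to 139334 in *Gde5* skKO. *Kdr* of 6 endothelial markers was called higher at 0.42. The endothelial list had no common direction, with 3 markers above 0 on both arrays, 3 below 0 on both and a median of 0.063. *Ahsg* of 3 liver markers with signal was called lower while *Apoa1*, *Apoa2* and *Ttr* did not pass. No leukocyte, fibroblast, nerve or blood marker was called. The part of these marker differences in the ratios of *Ddit4*, *Sesn2* and *Prkcz* was not tested. In whole muscle, fewer cells of a type and less RNA per cell cannot be told apart.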

How the data were processed

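RNA of GAS muscle from WT and *Gde5* skKO mice was hybridized to 2 dye-swapped 2-colour Agilent whole mouse genome arrays, which lay on 1 slide and came from 1 scan. The authors processed the scans with Feature Extraction 9.5.3.1, per the file headers. The deposited files hold, per spot, the log10 ratio (Cy5 over Cy3, background-subtracted and dye-normalized), its p-value under the software's error model, and the intensity of spot and background in either channel. The log10 ratio stands again, with fewer digits, in the deposited series table. Here the ratios were put on the log2 scale with *Gde5* skKO over WT as their direction, and repeated spots were averaged. Spots with outlier marks (164 on array 1 and 200 on array 2) and 7 spots on array 1 with local background over 2 times the signal were left out. On array 1, 45.6% of WT spots and 53.2% of *Gde5* skKO spots were well above background, and on array 2, 47.4% and 44.6%. No test across mice was made, and having 2 arrays limits the precision.

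Probes were named through RefSeq (GRCm38.p6), 24375 by accession, 6301 by symbol and 2426 by synonym, and 8072 kept the array's name. Of 74 probes under a member name or alias, 2 named *Pdk1*, pyruvate dehydrogenase kinase by accession and also an alias of *Pdpk1*, were left out. Probe coordinates are those of the array annotation (mm8). The brightest probe stood for a gene, among probes well above background for either genotype on each array. Named in full were called members, members whose mean log2 ratio reached 0.5 in size with signal in both channels, members past the threshold on 1 array with a mean of at least 0.3 in size, 14 fixed core genes, and called genes of the wider pathway. The members and lists were chosen with earlier results of these data known. Further genes named were chosen after their values were seen. The values of 1 gene of the wider pathway are not reported here, although the counts over that list include it.

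Alternatives were normexp (offset 50) and loess, loess without background correction, the series table, other filters, probe choices, names and thresholds, limma's moderated test (limma 3.58.1, R 4.3.3), the methods' t-test applied to channel values, and each array alone. Python 3.11.15 was used with matplotlib 3.10.9, scipy 1.17.1, pandas 2.3.3 and numpy 2.4.6. The call was tested on simulated data in which 200 of the 13598 genes differed by 1.5 on the log2 scale. It recovered 98% of these and called 0.112% of the rest. That difference is far larger than the 1.5-fold band, which is 0.585 on the log2 scale, and no smaller one was simulated. The 98% thus does not tell how often the call would find differences as small as the members' ratios.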

Additional observations from a re-analysis of the deposited data

How the results depend on the processing

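Members were called only by unadjusted tests and by array 1 alone. Limma's unadjusted test called 1 member (*Akt2*), the methods' t-test, unadjusted, called 2 (*Akt2* and *Phlpp1*), and single arrays called 0 to 3 (*Cbl*, *Rictor* and *Shc1*, all on array 1). The members' median, 0.050, was 0.018 from the mean over probes, 0.0084 without background correction, 0.0017 after normexp and loess, and 0.015 to 0.025 from single arrays.

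Over all genes, 215 higher and 235 lower became 50 and 76 with Feature Extraction p adjusted per array, 107 and 127 at p under 0.01, 39 and 70 by limma's adjusted test, 577 and 581 by its unadjusted test, 617 and 572 by the methods' t-test, 0 and 0 after its adjustment, and 928 to 974 and 725 to 914 on single arrays. In the wider pathway, 1 higher and 2 lower became 0 and 1 with p adjusted per array or limma's adjusted p, 4 and 6 by limma unadjusted, 3 and 4 by the methods' t-test, 0 and 0 after adjustment, and 5 to 5 and 4 to 4 on single arrays. Counting any called probe gave 2 higher, *Prkcz* and *Igf2*. The count of lower genes was 1 at p under 0.01, by a 1.5-fold rule, from means over probes, or with names by accession alone. Under that naming *Sesn2* rested on its other probe and reversed to 0.18. Other causes were not tested.

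Each ratio already pairs the genotypes within its array, and the labels give 1 group of ratios, which leaves nothing further to block. The methods' t-test did not keep this pairing, since it compared the channel values of the genotypes as unpaired groups. The slide could not serve as a block, since both arrays share it. Dim probes such as those of *Cbl* and *Shc1* limit what a ratio can show.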

Other observations

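Some member ratios moved between arrays with the dye normalization. *Pdpk1*, at 0.069 and 0.021 in the deposited ratios, was at -0.41 on array 1 and 0.41 on array 2 after normexp and loess. *Rac1*, at -0.37 and -0.0039 in the deposited ratios, was at -0.63 and 0.22 by the same steps. The means of both stayed near the deposited ones, at 0.0015 for *Pdpk1* and -0.21 for *Rac1*, and the cause was not tested.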
